A study of Mus musculus with 10 samples.

Results

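The genes described here are 10 mouse genes for acute phase proteins that adipose tissue or liver makes: the serum amyloid A genes Saa1, Saa2 and Saa3, the orosomucoid genes Orm1 and Orm2, haptoglobin (Hp), lipocalin 2 (Lcn2), the protease inhibitor gene Serpina3n, ceruloplasmin (Cp) and the metalloreductase gene Steap4. They were chosen by what their proteins are, though with earlier results of these data known. All 10 of 10 were measured, each by 1 probe set, among 19661 genes tested. The mice were 10 untreated, chow-fed F2 females aged 14 weeks from a cross of the Fat line with a V congenic line, itself made by 11 to 12 backcrosses to the Fat line. 5 mice carried 2 Fat-line alleles at the obesity locus Fob3a (FF) and 5 carried 2 V-line alleles (VV), which the labels also call the Lean-line allele. Inguinal-femoral subcutaneous white fat was profiled on one-colour arrays, 1 array per mouse, and each sample has its own animal number, so the replicates are separate mice. None of the 10 genes lies on chromosome 15, where Fob3a maps.

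The acute phase response is the change in plasma proteins that follows infection, injury or inflammation. Interleukin 6 acting through STAT3, and interleukin 1 and tumour necrosis factor acting through NF-kappaB and C/EBP factors, switch on these genes in hepatocytes, and glucocorticoids strengthen the response. Fat also makes several of them: adipocytes secrete haptoglobin, orosomucoid and lipocalin 2, and in the mouse Saa3 is the serum amyloid A gene of adipocytes and macrophages, whereas Saa1 and Saa2 are mainly hepatic.

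Saa1, Saa2 and Saa3 lie in 1 cluster on chromosome 7, with Saa4 between Saa3 and Saa1. Their RefSeq promoter windows (GRCm38.p6, from 250 bases before the start site to 50 after it, printed 5′ to 3′ on the strand of the gene) are shown because the results below turn on Saa3 and on how it differs from its neighbours. Capitals mark a C/EBP motif, searched as TTNNGCAA on both strands.
Saa1, chr7:46742931-46743230, minus strand: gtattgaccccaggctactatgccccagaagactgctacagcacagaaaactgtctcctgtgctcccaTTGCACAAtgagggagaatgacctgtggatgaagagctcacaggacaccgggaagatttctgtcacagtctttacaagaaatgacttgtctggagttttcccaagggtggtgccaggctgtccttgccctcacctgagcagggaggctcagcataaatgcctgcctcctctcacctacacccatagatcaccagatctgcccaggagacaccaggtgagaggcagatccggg
Saa2, chr7:46751583-46751882, plus strand: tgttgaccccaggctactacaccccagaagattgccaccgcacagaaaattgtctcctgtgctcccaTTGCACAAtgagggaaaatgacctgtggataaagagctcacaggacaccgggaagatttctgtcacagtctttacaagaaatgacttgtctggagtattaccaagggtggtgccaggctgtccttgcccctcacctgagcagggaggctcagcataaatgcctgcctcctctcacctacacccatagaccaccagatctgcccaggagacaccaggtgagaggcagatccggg
Saa3, chr7:46715627-46715926, minus strand: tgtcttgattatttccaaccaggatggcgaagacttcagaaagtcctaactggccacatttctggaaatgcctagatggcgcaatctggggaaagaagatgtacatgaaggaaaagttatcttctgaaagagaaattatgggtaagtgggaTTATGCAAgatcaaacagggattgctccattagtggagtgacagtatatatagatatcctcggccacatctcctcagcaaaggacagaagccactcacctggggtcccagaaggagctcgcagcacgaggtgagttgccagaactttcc
The windows of Saa1 and Saa2 were 95.3% identical (287 of 301 aligned columns). That of Saa3 was 50.1% identical to Saa1 and 50.0% to Saa2. The C/EBP letters began 182 bases before the start site in Saa1, 183 in Saa2 and 99 in Saa3. Promoter windows were found for 8 of the 10 genes, all but Hp and Orm1. Of those 8 genes, 7 held the C/EBP motif, against 10.8% of 32851 mouse promoter windows of the same length. The units differ, since the 8 genes had 9 windows, the extra window being of Cp and without the motif. The near-identical windows of Saa1 and Saa2 are also not independent. The other matches were 120 bases before the start site in Orm2, 216 in Lcn2, 87 in Steap4 and 70 in Cp, and Serpina3n had none. A STAT motif (TTCNNNGAA, both strands) was present in 1 of 8 genes, Steap4, against 8.30% of all windows, and an NF-kappaB motif likewise in Steap4 only, against 4.51%. A match is a run of letters and not a measured binding site.

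The arrays were checked first. Adipoq, the adipocyte hormone adiponectin, had log2 intensities of 13.25 to 13.44 in all 10 mice, as a check of the adipose label. VV replicate 1 carried liver RNA. Albumin (Alb) read 13.91 there and 12.56 in VV replicate 2, against 10.38 to 11.33 in the other 8 mice, and for 20 of 21 measured liver markers that mouse exceeded each of the other 9 by more than 1 log2 unit. The liver score, the mean of those 21 genes after centring each over the 10 mice, was 3.48 in VV replicate 1, 0.28 in VV replicate 2, and -0.66 to -0.29 in the others. Since liver is the main source of several of these proteins, the difference of each gene below is given for all 10 mice and for the 9 mice without VV replicate 1.

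No acute phase gene passed the test between genotypes. In limma fitted over all 19661 genes with Benjamini-Hochberg adjustment, 0 of the 10 genes had an adjusted p under 0.05 with 10 mice and 0 of 10 with 9 mice, where 0.753% and 0.829% of all genes did. At an unadjusted p under 0.05 the count was 1 of 10 in each fit, Saa3, against 16.4% and 16.5% of all genes, a share near that background. All but Cp had a lower mean in FF than in VV in both fits (9 of 10), against 49.7% and 51.6% of all genes. The median difference, FF minus VV, was -0.11 log2 units with 10 mice and -0.06 with 9, against 0.0008 and -0.0044 over all genes. The genotypes overlapped for 10 of 10 genes in both sets of mice, where 4.70% of all genes did not overlap with 10 mice and 6.90% with 9.

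**Figure D1:**
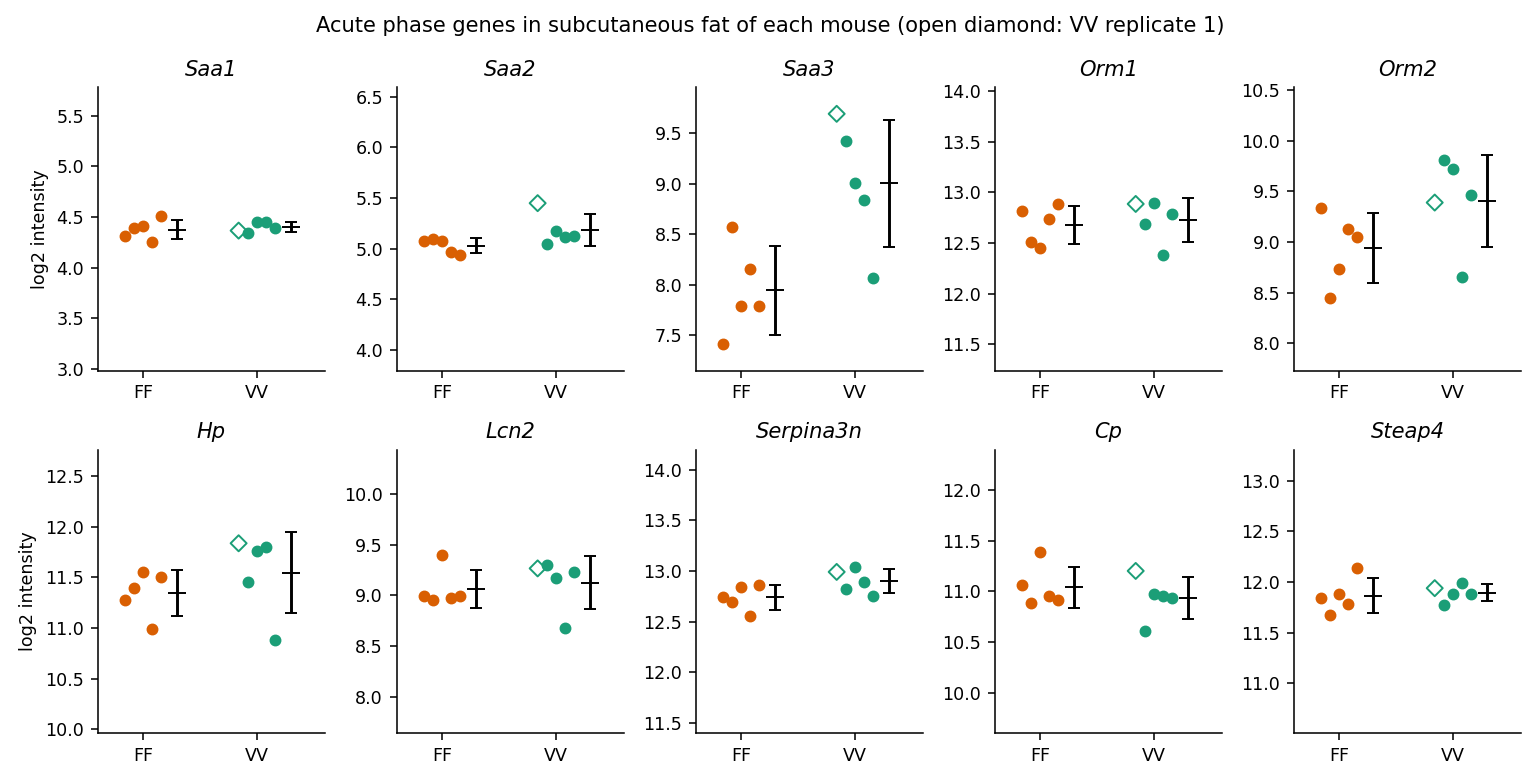
Log2 intensity of each of the 10 acute phase genes in each mouse, FF in orange and VV in green, with VV replicate 1 as an open diamond; the bar beside each group is its mean ± SD (n = 5), and each panel has its own vertical range, of the same length in all. The genotypes overlap in every panel, and the widest spread is that of Saa3, from 7.41 to 9.69.

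Saa3 had the largest difference of the 10. Its log2 intensity was 7.41, 8.57, 7.80, 8.16 and 7.79 in FF replicates 1 to 5 and 9.69, 9.42, 9.001, 8.83 and 8.06 in VV replicates 1 to 5. 4 of the 5 VV mice lay above every FF mouse, and VV replicate 5 fell within the FF range. The means were 7.95 ± 0.44 in FF (SD, n = 5) and 9.001 ± 0.62 in VV (SD, n = 5), or 8.83 ± 0.57 (SD, n = 4) without VV replicate 1. The FF minus VV difference was -1.05 (SE 0.29, 95% interval -1.70 to -0.41), a level 2.08-fold higher in VV, with an adjusted p of 0.108 from limma. Without VV replicate 1 it was -0.88 (SE 0.27, 95% interval -1.49 to -0.28), or 1.84-fold, with an adjusted p of 0.139. An exact permutation test of this gene alone, two-sided, gave p = 0.0238 over the 252 assignments of 10 mice and p = 0.0397 over the 126 assignments of 9, where the smallest possible is 0.00794. Leaving out 1 further mouse from the 9 gave exact permutation p values of 0.0179 (without VV replicate 5) to 0.107 (without VV replicate 2). Fewer assignments remain then, and 0.0179 is the smallest p possible for its set. It was reached by leaving out the VV mouse that lay within the FF range. The same test was run on all 10 genes, and Saa3 is the 1 with the smallest p in both sets of mice. After adjustment over all genes Saa3 did not pass, and it ranked 772 by p with 10 mice and 1215 with 9. Without VV replicates 1 and 2, both of which carried liver RNA, the difference was -0.69 (adjusted p 0.302 from limma). By size alone, 40 of the 19661 genes had an FF minus VV difference at or below that of Saa3 with 10 mice and 22 with 9, Saa3 included. With 10 mice the count takes in liver genes such as Ahsg (-1.72) and Apoa1 (-1.43), which were at -0.70 and -0.55 with 9.

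The hepatic serum amyloid A genes read low, and their readings differed little. Saa1, whose protein replaces apolipoprotein A-I on high density lipoprotein in inflammation, ranged from 4.26 to 4.51 in FF and from 4.35 to 4.45 in VV, with a difference of -0.02 (SE 0.05, 95% interval -0.14 to 0.09, adjusted p 0.866 from limma), and -0.03 (adjusted p 0.826) without VV replicate 1. Saa2, its near copy, read 5.08, 5.09, 5.07, 4.96 and 4.94 in FF and 5.45, 5.05, 5.18, 5.11 and 5.13 in VV. VV replicate 1 was the highest for Saa2, 0.27 above any other mouse. The difference was -0.15 (SE 0.07, adjusted p 0.337 from limma) with 10 mice and -0.09 (SE 0.05, adjusted p 0.450) with 9. Both genes were below the median intensity of all genes. Saa1 lay toward the low end of the array values, which began at 3.56. It was not raised in VV replicate 1, the mouse with liver RNA, where it read 4.37. With readings so low and no rise in that mouse, its small difference may say little about Saa1 RNA. Both genes are so alike in sequence that their probe sets may share RNA, which was not tested.

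The orosomucoids, plasma glycoproteins that bind drugs and lipids, lie together on chromosome 4 with Orm3 between Orm1 and Orm2. Orm2 read 9.33, 8.45, 8.73, 9.13 and 9.05 in FF and 9.39, 9.81, 9.72, 8.65 and 9.46 in VV. Again 4 of 5 VV mice were above every FF mouse, and VV replicate 4 was among the lowest. The group means were 8.94 ± 0.35 (SD, n = 5) and 9.41 ± 0.46 (SD, n = 5). The difference was -0.47 (SE 0.22, 95% interval -0.96 to 0.02, adjusted p 0.333 from limma) and was almost the same without VV replicate 1, at -0.47 (SE 0.24, adjusted p 0.360). VV replicate 2 had the highest Orm2 value, and without VV replicates 1 and 2 the difference was -0.34 (adjusted p 0.586 from limma). Over all the alternatives with 10 mice it ran from -0.65 to -0.34. The exact permutation p for Orm2 was 0.127 with 10 mice and 0.143 with 9. Orm1 ranged from 12.45 to 12.88 in FF and from 12.38 to 12.90 in VV, with a difference of -0.05 (SE 0.11, 95% interval -0.30 to 0.20, adjusted p 0.882 from limma), and -0.007 (adjusted p 0.986) without VV replicate 1. Orm3 went the other way in its means, at 8.36 ± 0.35 in FF (SD, n = 5) and 8.17 ± 0.28 in VV (SD, n = 5), with the groups overlapping. Whether the probe sets of the 3 orosomucoid genes share RNA was not tested.

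Serpina3n, a secreted serine protease inhibitor of the mouse serpin A3 cluster, read 12.75, 12.69, 12.84, 12.55 and 12.86 in FF and 12.99, 12.82, 13.04, 12.89 and 12.75 in VV. The groups overlapped, with 3 VV mice above every FF mouse. The difference was -0.16 (SE 0.07, 95% interval -0.32 to 0.003, adjusted p 0.314 from limma), and -0.14 (SE 0.08, adjusted p 0.420) without VV replicate 1. The exact permutation p was 0.0714 with 10 mice and 0.159 with 9.

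The genes of proteins that bind haemoglobin, siderophores or metals gave no difference that passed the test. Hp, which captures free haemoglobin, ranged from 10.99 to 11.55 in FF and from 10.88 to 11.84 in VV. Its difference was -0.20 (SE 0.18, 95% interval -0.60 to 0.19, adjusted p 0.622 from limma), and -0.13 (adjusted p 0.773) without VV replicate 1. Single mice moved it: with 10 mice it was -0.37 without VV replicate 5 (unadjusted p 0.012, adjusted p 0.186) and -0.11 without FF replicate 4, and with 9 mice it was -0.33 without VV replicate 5 and -0.02 without VV replicate 4. Lcn2, which withholds iron from bacteria by binding their siderophores, ranged from 8.96 to 9.40 in FF and from 8.67 to 9.30 in VV, with a difference of -0.06 (SE 0.13, 95% interval -0.34 to 0.22, adjusted p 0.853 from limma), and -0.03 (adjusted p 0.945) without VV replicate 1. Steap4, a metalloreductase of adipocytes that cytokines induce, ranged from 11.67 to 12.14 in FF and from 11.77 to 11.99 in VV, with a difference of -0.03 (SE 0.08, 95% interval -0.21 to 0.15, adjusted p 0.895 from limma), and -0.02 (adjusted p 0.944) without VV replicate 1. Cp, the copper-carrying ferroxidase of plasma, was the only gene with a higher mean in FF, at 11.04 ± 0.20 (SD, n = 5) against 10.94 ± 0.21 (SD, n = 5). Its difference was 0.11 (SE 0.12, adjusted p 0.705 from limma) and 0.17 (SE 0.11, adjusted p 0.477) without VV replicate 1. With 10 mice it was 0.020 without FF replicate 3 and 0.025 without VV replicate 2, and with 9 mice it ran from 0.087 to 0.21 when 1 further mouse was left out. For Lcn2, Steap4, Cp, Orm1, Serpina3n, Saa1 and Saa2 the 95% intervals with 10 mice lay within 0.4 log2 units of 0. The low readings of Saa1 and Saa2 limit what their intervals can say. Among the 10 genes the intervals of Saa3 and Orm2 were the widest.

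**Figure D2:**
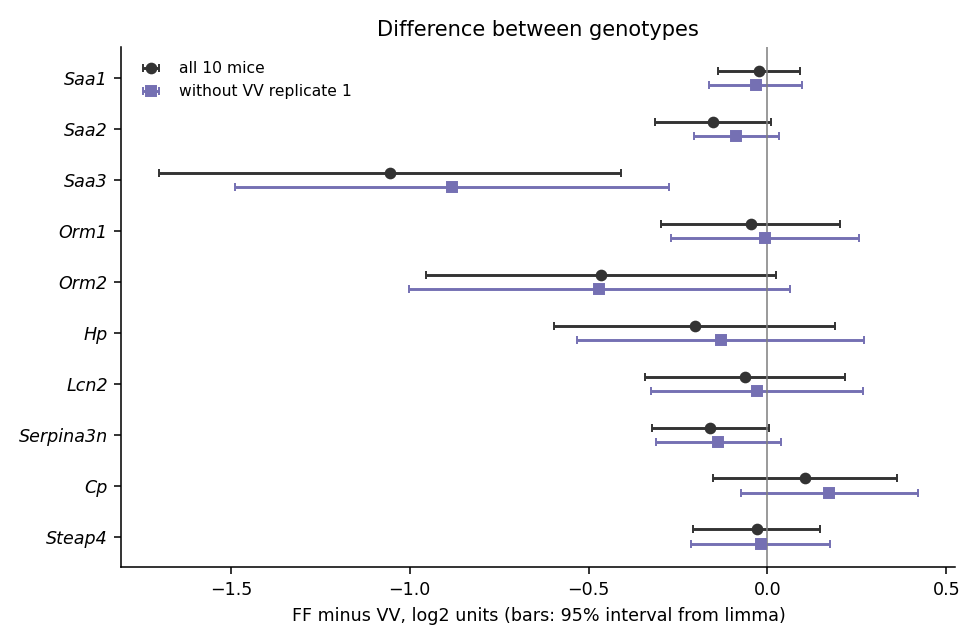
Difference between genotypes for each gene, FF minus VV in log2 units, from limma with all 10 mice (circles) and without VV replicate 1 (squares); bars are 95% intervals. Saa3 sits furthest from 0, at -1.05 and -0.88, and is the only gene whose interval leaves out 0 in either fit, before any adjustment over genes.

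These 10 genes were not raised in VV replicate 1 to the extent that liver genes were. Relative to the highest of the other 9 mice, VV replicate 1 was higher for 3 of 10, Saa2 and Saa3 by 0.27 each and Hp by 0.04, and none exceeded 1 log2 unit. The median over the 10 genes was -0.09. Among 19 measured acute phase genes that are mainly hepatic, 17 were highest in VV replicate 1 and 14 by more than 1 log2 unit, with a median excess of 3.07. Saa4, the constitutive serum amyloid A of liver, read 9.83 in VV replicate 1 and 6.02 in VV replicate 2, against 4.98 to 5.36 in the other mice. Orm3, on the same list, was 0.52 below the highest other mouse there. Within VV, replicate 1 exceeded the mean of the other 4 by 0.86 for Saa3, 0.36 for Hp, and 0.33 for each of Cp and Saa2, but was 0.02 lower for Orm2. The lists also differ in level. Their mean log2 intensity in FF was 9.45 to 9.56 for the 10 genes, 6.46 to 6.63 for the mainly hepatic genes and 6.60 to 6.84 for the liver markers. The same added RNA gives a smaller log2 excess on a brighter gene, so these excesses are not compared at like levels.

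**Figure D3:**
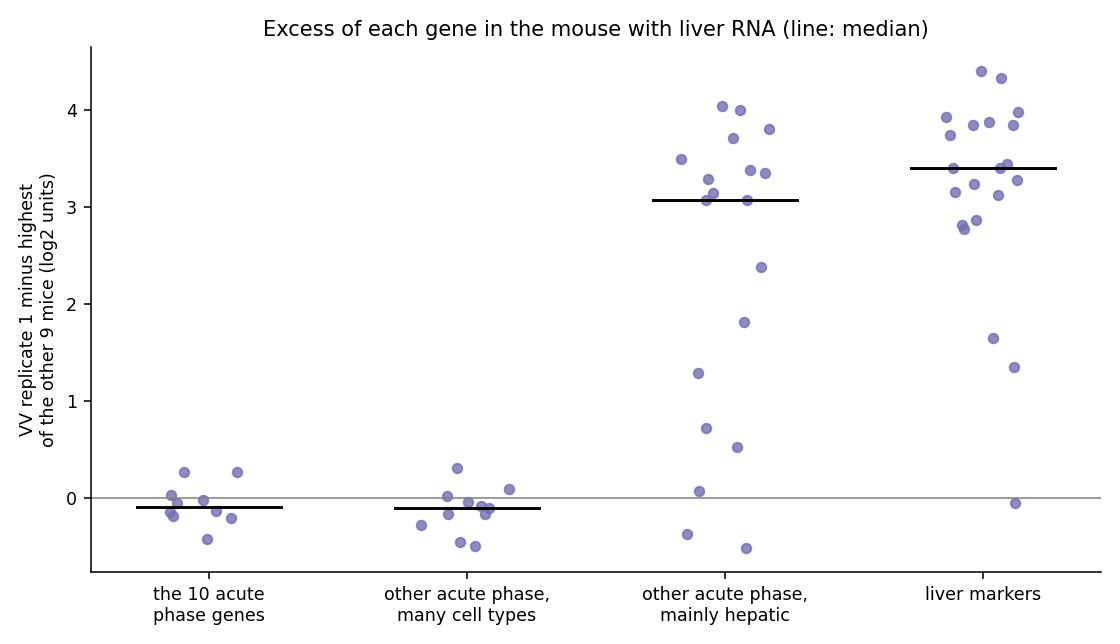
Log2 intensity in VV replicate 1 minus the highest of the other 9 mice, 1 point per gene, for the 10 acute phase genes, 11 other acute phase genes of many cell types, 19 mainly hepatic acute phase genes and 21 liver markers; lines are medians. The medians are -0.09, -0.10, 3.07 and 3.40, and no point of the first and second lists exceeds 1. The lists differ in level, and the same added RNA gives a smaller log2 excess on a brighter gene.

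Over the 9 mice without VV replicate 1, no relation of the 10 genes to the liver score passed the test. Of 10 relations, none passed Benjamini-Hochberg adjustment, with adjusted exact permutation p values of 0.708 to 0.947 for Pearson's r. For Saa3, r was 0.554 (exact permutation p = 0.111) and Spearman's rho 0.367 (exact permutation p = 0.336), and r was -0.01 without FF replicate 4 and VV replicate 2, the mice farthest from the median score. For Cp, r was -0.624 (exact permutation p = 0.142) and rho -0.333 (exact permutation p = 0.385), and r was 0.01 without those mice.

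Markers of other cell types were read in the same mice, since macrophages as well as adipocytes can express Saa3. In bulk tissue, fewer cells of a type and less RNA per cell cannot be told apart. All 11 of 11 macrophage markers had a lower mean in FF in both fits, 8 of them at an unadjusted p under 0.05, and limma called 0 of 11. Over all genes 49.7% had a lower mean in FF with 10 mice and 51.6% with 9. An unadjusted p under 0.05 in either direction was found for 16.4% and 16.5% of all genes. The adjusted test called 0.753% and 0.829% of them. These shares are the background for the list counts that follow as well. The mean log2 intensity of the 11 macrophage markers ran from 10.19 to 10.60 in FF and from 10.53 to 10.87 in VV. The macrophage score, centred as for liver, was -0.32 to 0.09 in FF and 0.02 to 0.36 in VV, with or without VV replicate 1. Adgre1, a surface marker of mouse macrophages, averaged 9.75 ± 0.20 (SD, n = 5) in FF against 10.28 ± 0.31 (SD, n = 5) in VV, with an adjusted p of 0.105 from limma, and 0.106 without VV replicate 1. Thermogenic adipocyte markers differed most: 7 of 7 had a higher mean in FF and 5 passed the test in both fits, among them Ucp1, the uncoupling protein of brown and beige fat, with a difference of 3.96, and 3.90 without VV replicate 1. Their score was 0.47 to 1.70 in FF and -1.53 to -0.66 in VV. Adipocyte, neutrophil, endothelial and mammary markers gave 0 calls in both fits, and S100a8, a neutrophil gene, read 5.48 to 5.98 in all mice. Progenitor markers gave 0 of 8 calls with 10 mice and 2 of 8, Col1a1 and Col3a1, both lower in FF, with 9. Skeletal muscle markers gave 0 calls, with 10 of 10 higher in FF in both fits (median difference 0.50 with 10 mice and 0.64 with 9) and none at an unadjusted p under 0.05. Their score was 2.01 in FF replicate 1, -0.53 to 0.11 in the other FF mice and -0.44 to 0.37 in VV. FF replicate 1 also had the lowest Saa3 value. The part of any of these cells in the Saa3 difference was not tested.

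The relation of the 10 genes to the macrophage score was examined after their levels were known. Over 9 mice, Saa3 had r = 0.750 (exact permutation p = 0.0193) and rho = 0.750 (exact permutation p = 0.0255). Adjusted over the 10 genes these exact permutation p values were 0.193 and 0.255. Without FF replicate 1 and VV replicate 2, the mice farthest from the median score, r was 0.307, and the relation no longer held over the narrower range of scores that was left. Both genotypes are pooled in it and both measures had lower means in FF, and each genotype alone has too few mice for a correlation. For the other 9 genes r ran from -0.305 for Cp to 0.445 for Serpina3n.

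**Figure D4:**
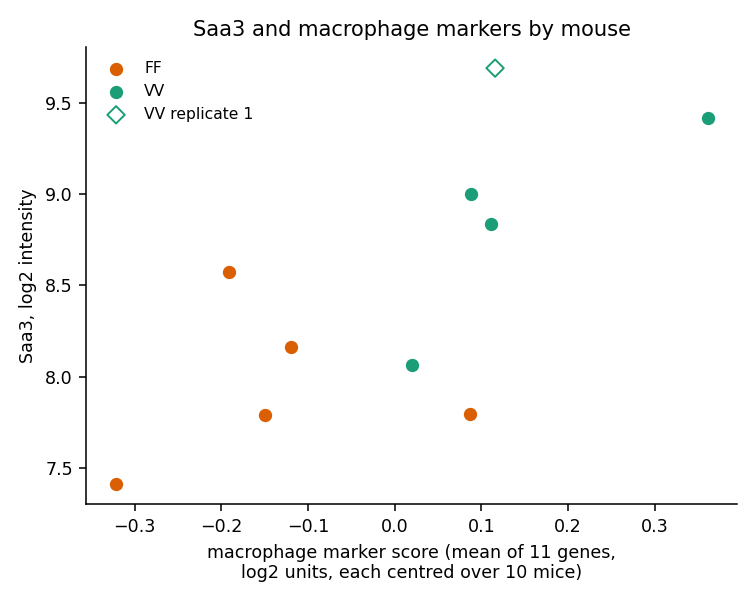
Saa3 log2 intensity against the macrophage marker score, the mean of 11 marker genes after centring each over the 10 mice, 1 point per mouse; the open diamond is VV replicate 1. The lowest point in both directions is FF replicate 1 (score -0.32, Saa3 7.41) and the highest score belongs to VV replicate 2 (0.36, Saa3 9.42).

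The signalling genes upstream of the response gave no calls. In the interleukin 6 family, 18 of 19 listed genes were measured and 0 passed in either fit, with 1 higher and 3 lower in FF at an unadjusted p under 0.05 with 10 mice and 0 and 4 with 9. The smallest p values were those of Jak2, a kinase of the receptor complex, at -0.18 (adjusted p 0.226 from limma, and 0.242 without VV replicate 1) and Osmr, the oncostatin M receptor, at -0.17 (adjusted p 0.240, and 0.262). Il6 itself read 4.15 to 4.45 over all mice, with the same mean of 4.31 in both genotypes. These readings were as low as those of Saa1, so the equal means may say little about Il6 RNA. Stat3 ranged from 10.75 to 10.91 in FF and from 10.78 to 11.00 in VV. In the interleukin 1, tumour necrosis factor and NF-kappaB list, 18 of 22 were measured and 0 passed, with 3 higher and 3 lower at an unadjusted p under 0.05 in both fits. Irak1, a kinase below the interleukin 1 and Toll-like receptors, had a difference of 0.17 and its genotypes did not overlap (9.47 to 9.55 in FF, 9.23 to 9.41 in VV), as 4.70% of all genes did not, with an adjusted p of 0.086 from limma (0.17 and 0.126 without VV replicate 1). Tnfrsf1a, the main tumour necrosis factor receptor, was at 0.15 (adjusted p 0.139 from limma) and at 0.13 (adjusted p 0.228) without VV replicate 1. Among the glucocorticoid receptor and its targets, 7 of 7 were measured, 0 passed and 2 were higher at an unadjusted p under 0.05: Zbtb16 at 0.35 (adjusted p 0.127 from limma) and Fkbp5 at 0.48 (adjusted p 0.302), both known glucocorticoid targets. Without VV replicate 1 they were at 0.40 (adjusted p 0.083) and 0.58 (adjusted p 0.209). Of the 7 genes, 4 had a higher mean in FF and 3 a lower mean, in both fits.

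Receptors and handling genes gave the same count of 0. Of 12 measured receptors and partners of acute phase proteins, of 14 listed, 1 was lower in FF at an unadjusted p under 0.05, Tlr2, a Toll-like receptor for bacterial lipoproteins that also responds to serum amyloid A. It read 7.82 to 8.17 in FF and 8.23 to 8.37 in VV, without overlap, as 4.70% of all genes did not overlap. The Tlr2 difference was -0.30 (adjusted p 0.069 from limma), and -0.32 (adjusted p 0.070) without VV replicate 1. The next was Ager, at -0.09 (adjusted p 0.533 from limma), and -0.10 (adjusted p 0.534) without VV replicate 1. Of 16 measured iron and copper handling genes, of 17 listed, 0 passed: Hfe, the haemochromatosis gene, was at -0.28 (adjusted p 0.258 from limma) and Aco1, the iron regulatory protein, at 0.13 (adjusted p 0.358). Without VV replicate 1 they were at -0.24 (adjusted p 0.354) and 0.17 (adjusted p 0.223).

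Other acute phase genes gave 0 calls as well. In the mainly hepatic list, 19 of 24 were measured and 0 passed. Its median difference was -0.70 with VV replicate 1 and -0.13 without it, and Fga, a fibrinogen chain, was -0.75 with it (adjusted p 0.466 from limma) and -0.22 without it (adjusted p 0.216). Lbp, the lipopolysaccharide binding protein, was -0.46 with it (adjusted p 0.206 from limma) and -0.48 without it (adjusted p 0.222), and was not highest in that mouse. Of the acute phase genes that many cell types make, 11 of 13 were measured and 0 passed, with 5 lower at an unadjusted p under 0.05 with 10 mice and 3 with 9. Cfb, complement factor B, was at -0.46 (10.02 to 10.33 in FF, 10.36 to 11.05 in VV, adjusted p 0.101 from limma), and Il1rn, the interleukin 1 receptor antagonist, at -0.32 (adjusted p 0.140). Without VV replicate 1 they were at -0.36 (adjusted p 0.105) and -0.29 (adjusted p 0.202). Timp1, a metalloproteinase inhibitor, also had no overlap, at 7.40 to 7.69 in FF and 7.70 to 8.29 in VV. With 10 mice, 4.70% of all genes had none. The Timp1 difference was -0.33 (adjusted p 0.141 from limma), and -0.36 (adjusted p 0.132) without VV replicate 1. In the serpin A3 cluster, 2 of 10 other genes were measured, Serpina3a at -0.16 (adjusted p 0.091 from limma) and Serpina3b at -0.10 (adjusted p 0.559), and at -0.15 (adjusted p 0.147) and -0.11 (adjusted p 0.560) without VV replicate 1.

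Correlations among the 10 genes from mouse to mouse were mostly weak. Of 45 pairs over the 9 mice, 29 had a positive r, with a median of 0.13 and a range of -0.64 to 0.79. 4 pairs had an unadjusted exact permutation p under 0.05, and none passed adjustment over the 45 (lowest adjusted p 0.430). The closest pair was Hp and Serpina3n, with r = 0.792 (exact permutation p = 0.0108) and rho = 0.850 (exact permutation p = 0.0061), and r = 0.822 without FF replicate 4 and VV replicate 5. Orm1 and Orm2, on either side of Orm3, had r = 0.725 (exact permutation p = 0.0317) and rho = 0.583 (exact permutation p = 0.108), and r = 0.575 without FF replicate 3 and VV replicate 4. Shared hybridisation of their probe sets was not tested. Saa3 and Cp had the lowest, r = -0.643 (exact permutation p = 0.0532).

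The genes most like each of the 10 over the same 9 mice were found by Pearson's r among all genes tested, as a description of 9 points. For Saa3 they were Mdm2 (r = 0.977) and Olfr697 (r = 0.943), for Orm2 Psmb9 (r = 0.937) and Mir409 (r = 0.934), and for Serpina3n Rasa2 (r = 0.957) and Sort1 (r = 0.943). Hp was closest to Klhdc8b (r = 0.922) and Pdzd2 (r = 0.919), Lcn2 to Wdyhv1 (r = 0.956) and Stmn2 (r = 0.929), and Orm1 to Gorasp1 (r = 0.976) and Fkbp8 (r = 0.972). Cp was closest to Vmn1r178 (r = 0.954) and Acss3 (r = 0.939), and Steap4 to Camk2g (r = 0.949) and Cfap57 (r = 0.940). Saa1, whose whole range was 0.25 log2 units, was closest to Olfr1215 (r = 0.929) and Lmo4 (r = 0.914), and Saa2 to Il20ra (r = 0.941) and 4921508D12Rik (r = 0.913). None of the 10 genes was among another's closest genes.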

How the data were processed

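RNA from the subcutaneous fat of 10 mice, with RNA integrity numbers above 8.5 per the labels' protocols, was copied and amplified from random primers, labelled with biotin and read on one-colour arrays. The deposited values are log2 intensities made by the authors with RMA, per the submitters' processing notes; the sources used here do not give its version, the chip or the genome build. They ran from 3.56 to 14.2, with array medians of 7.15 to 7.17 in FF and 7.18 to 7.21 in VV. Batches were not tested, because the sources used here name none.

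Of 35557 probe sets, 25689 were valued on all arrays. Of those, 20777 named 1 gene in GEO's platform annotation, 232 named several and 4680 were unnamed, and only the first kind was used. Symbols were updated through gene identifiers for 20696 probe sets. For the 564 genes with several, the probe set with the highest mean was kept.

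limma 3.58.1 in R 4.3.3 fitted genotype alone (lmFit, then eBayes), and its two-sided p values for 19661 genes were adjusted by the Benjamini-Hochberg method, with calls made under 0.05. The script was tested on simulated data. Exact permutation tests and correlations used scipy 1.17.1 in Python 3.11.15, promoter alignments Biopython 1.88 and figures matplotlib 3.10.9. The number of arrays limits the precision.

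The members and lists were chosen with earlier results of these data known. Named are the 10 genes in both fits, the genes of each pathway list past the threshold or otherwise the 2 with the smallest p with 10 mice, the 2 genes most like each of the 10, and Adipoq, Alb, Ucp1, Adgre1 and S100a8. Il6, Stat3, Saa4, Orm3 and Timp1, the marker genes called, the pairs of the 10 genes and the macrophage relation were chosen after their values were seen. Alternatives were leaving out mice, the replicate number as a block, the liver score as a covariate, other normalisations, filters, probe set rules and limma settings, and a threshold of 0.10.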

Additional observations from a re-analysis of the deposited data

Results flagged for a closer look

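Single mice stood apart from the rest of their genotype in 9 of 70 groups checked by Dixon's test, which flags about 1 in 20 groups by chance. Among the 10 acute phase genes both such values were of Lcn2: 9.40 in FF replicate 3, above the other FF mice, and 8.67 in VV replicate 4, below the other VV mice. Fga read 8.40 in VV replicate 1 and Hfe 8.57 in FF replicate 3. The liver score was 3.48 in VV replicate 1 and, at a much smaller distance from its group, -0.29 in FF replicate 4. The macrophage score was 0.36 in VV replicate 2. The skeletal muscle score was 2.01 in FF replicate 1 and 0.37 in VV replicate 1.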

How the results depend on the processing

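None of the 10 genes was called under any of the alternatives run. Saa3 stayed lower in FF throughout, from -1.29 to -0.69 (limma adjusted p 0.0638 to 0.302) with 10 mice and from -1.14 to -0.69 (0.0920 to 0.302) with 9. Its exact permutation p with 9 mice ran from 0.0179 to 0.107 on leaving out 1 further mouse, where 0.0179 is the smallest p possible for its set. Of 376 alternative values of the 10 genes, 14 reversed sign, all small. Leaving out 1 mouse moved Saa1 between -0.056 and 0.0056, Orm1 between -0.13 and 0.0095 and Steap4 between -0.10 and 0.018 with 10 mice, and Lcn2 between -0.17 and 0.040, Orm1 between -0.11 and 0.064 and Steap4 between -0.087 and 0.029 with 9. Omitting VV replicates 1 and 2 gave Lcn2 0.040, and array medians set equal gave Orm1 0.0093 with 9 mice.

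The count of genes called over the whole array, 148 with 10 mice and 163 with 9, depended on single mice: 7 (without VV replicate 2) to 379 (without FF replicate 3), and 6 (without VV replicate 4) to 474 (without FF replicate 3). With 10 mice it was 8 without VV replicates 1 and 2, 28 without FF and VV replicates 1, 66 with the liver score as a covariate and 95 after quantile normalisation. With 10 and 9 mice it was 337 and 285 with array medians set equal, 355 and 299 with genes below the median intensity left out, 383 and 376 with array weights, and 702 and 755 at an adjusted p of 0.10. The replicate block gave 5 and 0. Over all genes, the deviations of same-numbered mice from their group means had r from -0.26 to 0.10. Such correlations cannot tell whether the replicate numbers pair the mice. Of 598 alternative values of the 16 genes named from the pathway lists, none reversed and 7 newly passed: 5 at the threshold of 0.10, Irak1 with array medians set equal (limma adjusted p 0.047, 10 mice) and Tlr2 with dim genes left out (limma adjusted p 0.044, 10 mice). The cause of these changes was not tested. Leaving out dim genes removes Saa1 and Saa2.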
